A study of Mus musculus with 14 samples.

Results

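The genes described here encode the subunits of 3 chromatin complexes, SWI/SNF, NuRD and Polycomb repressive complex 2 (PRC2), together with the H3K27 demethylases. The 39 genes were taken from a list of symbols by complex, with no threshold on a measured value, and all 39 were among the 24054 genes measured. The list holds 20 SWI/SNF genes, 10 NuRD genes, 7 PRC2 genes and 2 H3K27 demethylase genes. RNA was sequenced from low-input libraries of sorted mouse cells in 6 groups. The groups d0con and d0ko (n = 2 each) were embryonic stem cells (ESCs) at day 0, grown in medium without LIF on fibroblast feeders that carry a red fluorescent marker and were sorted away. The groups d3con and d3ko (n = 3 each) were Venus-positive cells sorted after 3 days of Activin A (12 ng/ml) on Wnt3a-secreting feeders, a regime that steers ESCs toward mesendoderm and endoderm. In d0con and d3con, of genotype Foxa2-Venus-KO/+, 1 allele of the pioneer factor gene Foxa2 had its coding region replaced by an H2B-Venus cassette. In d0ko and d3ko, of genotype Foxa2-Venus-KO/Foxa2-Venus-KO, both alleles were replaced, so that Venus reports the activity of the Foxa2 promoter in cells that make no Foxa2. Controls and knock-outs therefore all carried the reporter, and the controls had 1 working allele. Each genotype rested on few clones, C59 (replicates 1 and 3) and C63 (replicate 2) for con and C9 (replicates 1 and 3) and C17 (replicate 2) for ko. The groups d2-FVFn and d2-FVFp (n = 2 each, clone T119) came from a separate TetON-Foxa2-Venus ESC line kept with LIF and serum and without feeders. These cells had received 40 ng/ml doxycycline for 48 h, which induces a Foxa2-Venus fusion, and were sorted as Venus-negative (d2-FVFn) and Venus-positive (d2-FVFp).

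SWI/SNF complexes use the energy of ATP to slide and evict nucleosomes, and occur as canonical BAF, PBAF and non-canonical BAF, which differ in their signature subunits. NuRD combines a CHD family remodelling ATPase with histone deacetylases. PRC2 methylates lysine 27 of histone H3, a mark of silenced developmental genes, and the demethylases Kdm6a and Kdm6b remove it. In ESCs a particular esBAF assembly, NuRD and PRC2 are known to balance pluripotency against the exit into the germ layers, and several subunits are known to be exchanged for a paralog as cells differentiate.

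Expected counts summed to between 18233032 and 25349918 in the day 0 libraries, 15882612 and 27278237 in the day 3 libraries and 14142788 and 20397757 in the doxycycline libraries. Foxa2 followed the labels, with 49.3 ± 12.7 TPM (transcript abundance scaled for gene length and library size; SD, n = 3) in d3con, 0.15 ± 0.04 (n = 3) in d3ko, 164 ± 6.19 (n = 2) in d2-FVFp and 2.5 ± 0.69 (n = 2) in d2-FVFn. The d3ko libraries did not resemble each other. A pluripotency score, the mean of log2(TPM + 1) over 6 marker genes, was 8.57, 6.64 and 8.82 in replicates 1, 2 and 3 of d3ko, 8.6 to 8.83 in the day 0 libraries and 4.49 to 5.49 in d3con. An endoderm score over 6 genes was 2.79, 3.2 and 2.02 in the d3ko libraries, 5.54 to 6.9 in d3con and 0.67 to 0.79 at day 0. Summed over 8 fibroblast markers, the level was 12.5 to 15 TPM in d0con, 38.3 to 137 in d0ko, 60.2 to 308 in d3con and 136 to 371 in d3ko, and no fibroblast marker was at 0 throughout any day 0 or day 3 group. The 6 pluripotency genes summed to 13790 to 15660 TPM at day 0, 561.5 to 984.8 TPM in d3con and 2668 to 17360 TPM in d3ko. By the effective gene lengths in the tables, the read length was 75 bases for d3con replicate 1 and d3ko replicate 1 and 50 bases for all others, 12 libraries.

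The 39 genes were mostly well expressed. The median of their mean levels was 63.8 TPM over the 38 that passed the filter on low counts, against 14.1 TPM over all 13899 genes tested. The deacetylase gene Hdac1 and the histone chaperone genes Rbbp4 and Rbbp7, whose products serve both NuRD and PRC2, had the highest means over the 14 libraries, and at day 0 Actl6a lay above Rbbp4. Hdac1 read 517 and 549 TPM in d0con and 706 and 663 TPM in d2-FVFn. At the other end was Actl6b, the neuronal actin-like subunit of SWI/SNF, which held between 0 and 3 counts in each of the 14 libraries, so no comparison was made for it. Dpf3, a BAF subunit known from muscle, held 1 to 13 counts in each day 0 library and at most 4 in each doxycycline library. Smarcd3, Chd3, Arid1b and Kdm6b stayed below 10 TPM in every library, as did Smarca2 and Dpf1.

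**Figure D1:**
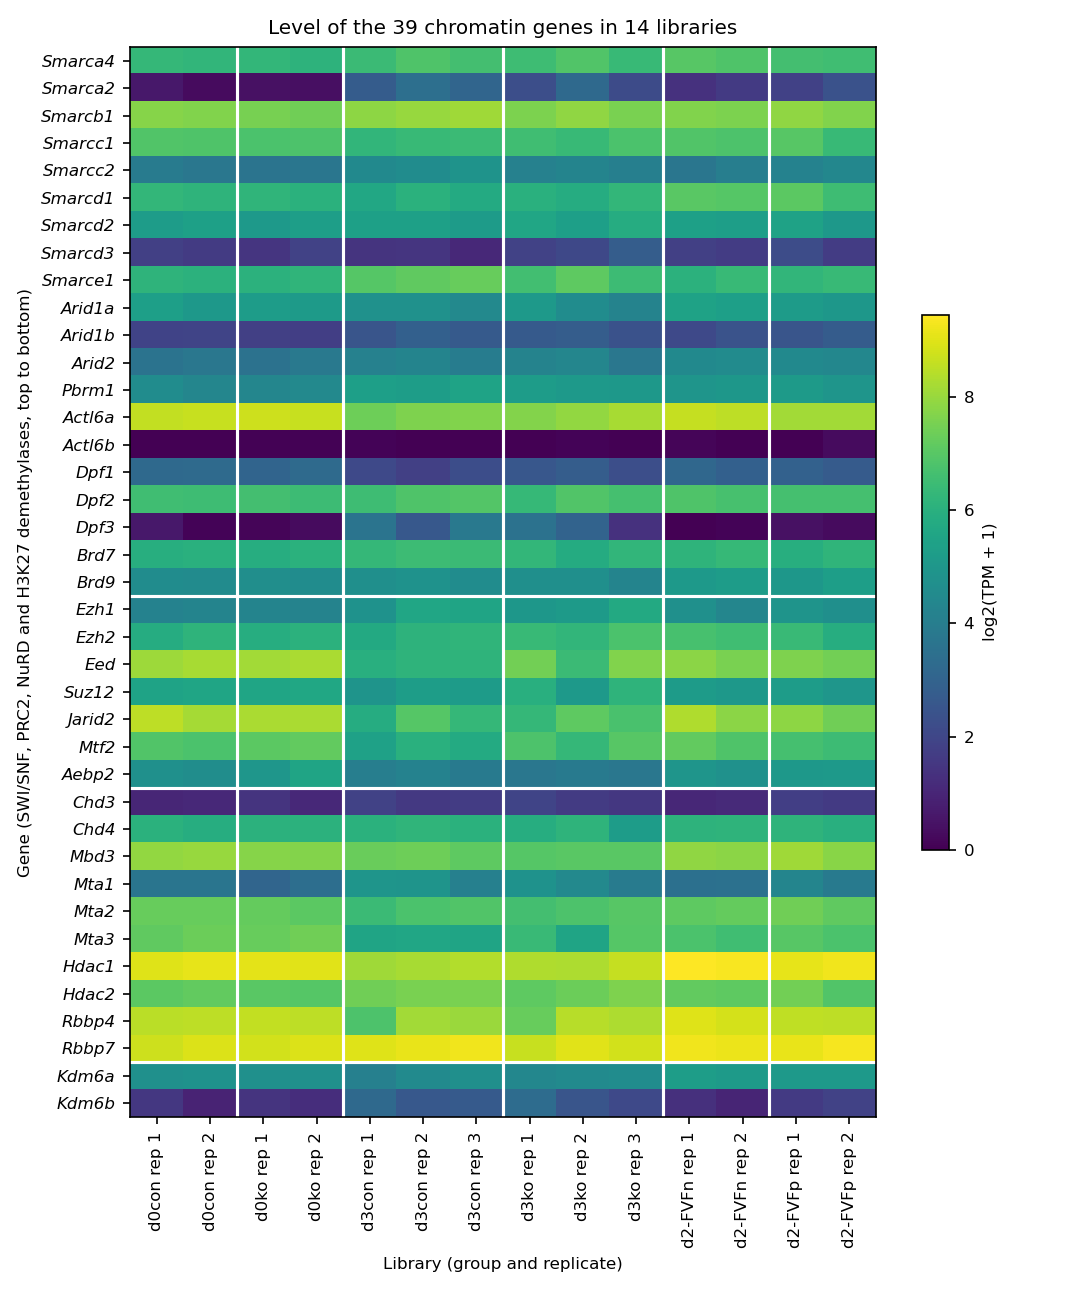
Level of each of the 39 genes (rows, ordered SWI/SNF, PRC2, NuRD and H3K27 demethylases, white lines between the complexes) in each of the 14 libraries (columns, white lines between the groups), as log2(TPM + 1) on the colour scale. Actl6b is dark throughout, Smarca2 and Dpf3 turn lighter at day 3, and Eed and Jarid2 turn darker there, with Eed in replicates 1 and 3 of d3ko lighter than in replicate 2.

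3 of the 38 genes tested, Eed, Mtf2 and Smarcc2, were called between the knock-out and the control at day 3, against 10.5% of all genes tested, and none of the 3 calls held with each library left out in turn. The sequence before the start sites of these 3 is shown because Foxa2 is a DNA-binding factor whose motif can be looked up there. The sequences are those of RefSeq on GRCm38, read 5′ to 3′ on the strand of the gene, and end at the last base before the annotated gene. They are 250 bases at chr7:89980977-89981226 on the minus strand for Eed, 236 bases at chr5:108065424-108065659 on the plus strand for Mtf2 and 196 bases at chr10:128458986-128459181 on the plus strand for Smarcc2. Capitals mark a match to the Foxa core motif TGTTTAC on either strand.
Eed: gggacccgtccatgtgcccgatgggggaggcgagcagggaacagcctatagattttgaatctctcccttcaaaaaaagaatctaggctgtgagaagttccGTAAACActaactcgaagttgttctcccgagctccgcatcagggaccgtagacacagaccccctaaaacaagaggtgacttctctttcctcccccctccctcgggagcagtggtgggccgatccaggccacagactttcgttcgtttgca
Mtf2: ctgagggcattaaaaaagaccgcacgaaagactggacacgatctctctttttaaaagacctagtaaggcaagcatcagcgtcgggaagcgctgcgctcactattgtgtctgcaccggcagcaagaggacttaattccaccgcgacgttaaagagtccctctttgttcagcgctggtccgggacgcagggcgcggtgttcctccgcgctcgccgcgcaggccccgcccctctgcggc
Smarcc2: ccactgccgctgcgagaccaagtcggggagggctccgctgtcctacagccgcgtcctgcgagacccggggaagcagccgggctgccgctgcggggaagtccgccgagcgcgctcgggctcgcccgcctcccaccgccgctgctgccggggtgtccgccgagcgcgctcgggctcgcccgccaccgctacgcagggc
Eed held the 1 match, GTAAACA, the reverse complement of the motif, ending 143 bases before the start site. RefSeq windows were matched for 33 of the 39 genes, 40 windows in all, and Eed had the only one with a match (2.5%), against 3.17% of 32851 windows of the same 250 bases over all genes. A match of these letters is not a binding site, and no binding was measured here. The windows of these genes were rich in CpG dinucleotides, with a median of 23 per window (1 to 40), against 6 over all windows. All windows include those of genes not expressed here, and a comparison with expressed genes alone was not made. The printed stretches held 12 CpG for Eed, 23 for Mtf2 and 30 for Smarcc2.

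The first comparison asked how the subunits changed as control ESCs became Venus-positive cells. From d0con to d3con the PRC2 genes Eed and Jarid2 and the NuRD gene Mta3 fell furthest among the 39 by fitted fold change, and the SWI/SNF genes Smarca2 and Dpf3 and the demethylase gene Kdm6b rose. Of the 38 genes tested, 9 were higher (23.7%) and 14 lower (36.8%) in d3con by edgeR's quasi-likelihood test at an adjusted p under 0.05. Over all genes tested, 27% were higher and 25.2% lower. 10 of the 38 changed by over 2-fold, against 35.2% of all genes. The median log2 fold change was -0.14 over the 38 genes and 0.07 over all genes. The fibroblast markers were also higher in d3con than in d0con, and their part in these results was not tested. In sorted bulk cells, fewer cells of a type and less RNA per cell cannot be told apart. Of the 23 calls, 14 held with each library left out in turn, and without d0con replicate 2 the count fell to 14, against 31.6% of all genes in that fit. The 9 that were lost at least once were Smarcc2, Smarcd1, Arid1a, Arid1b, Ezh1, Aebp2, Chd3, Kdm6a and Kdm6b, each of them without d0con replicate 2.

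Within PRC2, 4 of the 7 genes fell and 1 rose. Eed (GRCm38 chromosome 7, 89954654 to 89980976) encodes the subunit that reads the trimethyl mark and holds the complex together. Its level was 267 and 300.4 TPM in d0con and 61.6, 70.8 and 69.5 TPM in d3con. The d3con libraries lay close to each other and far below both d0con libraries, a 4.87-fold difference (log2 fold change -2.28 ± 0.30, SE, adjusted p = 5.15e-04). Jarid2 (chromosome 13, 44730774 to 44921643), an accessory subunit that recruits PRC2, read 371 and 295 TPM in d0con and 57.2, 123 and 78.8 TPM in d3con. It was 4.45-fold lower in d3con (-2.15 ± 0.29, adjusted p = 6.11e-04), and its spread between the d3con libraries was wider than that of Eed. Mtf2 (chromosome 5, 108065660 to 108109219), the Polycomb-like protein that binds CpG-rich DNA, went from 117 and 109 to 41.7, 62.9 and 54.6 TPM, with no overlap (-1.26 ± 0.21, adjusted p = 0.0015). Aebp2, another accessory subunit, fell less (-0.61 ± 0.19, adjusted p = 0.026), and this call was lost with the replicate number as a block but not with the clone pairs, and also without either d0con library and without d3con replicate 2 or 3.

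Of the other PRC2 genes 1 rose and none fell by the test. Ezh2, the main methyltransferase of dividing cells, read 57.1 and 71.2 TPM in d0con and 53.4, 68.2 and 72.9 TPM in d3con, and the groups overlapped (-0.20 ± 0.19, adjusted p = 0.41). Its paralog Ezh1, known from resting and differentiated cells, read 17.4 and 18.5 TPM in d0con and 27.1, 48.2 and 45.6 TPM in d3con. All 3 d3con libraries were higher (0.95 ± 0.26, adjusted p = 0.014). Suz12, the scaffold of the complex, was lower in every d3con library, at 29.2, 37.2 and 35.2 against 43.5 and 46.8 TPM, but did not pass the test (-0.62 ± 0.26, adjusted p = 0.073). Summed over the 7 PRC2 genes, the level was 882 ± 23.9 TPM (SD, n = 2) in d0con and 362 ± 71.6 TPM (n = 3) in d3con.

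SWI/SNF changed in both directions, with 6 of 19 genes higher and 5 lower. Smarca2 (chromosome 19, 26605073 to 26778321), also known as Brm, is the alternative ATPase of the complex. It read 0.54 and 0.2 TPM in d0con and 5.83, 9.9 and 7.41 TPM in d3con, from 22 and 7 counts to 182 to 238 counts. The rise was 12.1-fold (3.60 ± 0.52, adjusted p = 7.48e-04). The ATPase of esBAF, Smarca4 or Brg1, read 77.3 and 74.3 TPM in d0con and 86.3, 116 and 98.9 TPM in d3con, and its log2 fold change of 0.20 ± 0.17 did not pass the test (adjusted p = 0.34). Smarca4 thus remained the more abundant ATPase transcript in every library. Dpf3 (chromosome 12, 83213751 to 83487736) went from 0.51 and 0.07 to 11.3, 5.07 and 13.2 TPM, and its log2 fold change of 4.84 ± 1.10 (adjusted p = 0.0061) rests on 13 and 1 counts in d0con. Its paralog Dpf1 fell from 8.5 and 8.67 to 3.26, 2.47 and 3.7 TPM (-1.65 ± 0.29, adjusted p = 0.0018), while Dpf2, the most abundant of the family, read 93.1 and 91.5 TPM in d0con and 92.1, 116 and 122 TPM in d3con, which overlapped.

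Actl6a (chromosome 3, 32708546 to 32726973), the actin-like subunit of stem and progenitor cells, read 387 and 402 TPM in d0con and 164, 199 and 202 TPM in d3con. The d3con libraries were all lower (-1.28 ± 0.15, adjusted p = 3.89e-04). The scaffold Smarcc1 (BAF155), typical of esBAF, fell from 117 and 115 to 73.2, 81.3 and 85.6 TPM (-0.74 ± 0.13, adjusted p = 0.002). Its paralog Smarcc2 (BAF170; chromosome 10, 128459182 to 128490591) rose from 14.3 and 12.5 to 21.3, 23.6 and 28.1 TPM (0.63 ± 0.14, adjusted p = 0.0056). The signature subunits of canonical BAF moved apart in the same manner. Arid1a fell from 39.1 and 32.3 to 26.8, 26.3 and 20.9 TPM (-0.73 ± 0.26, adjusted p = 0.041), a call that was lost without any 1 of the d0con or d3con libraries. Arid1b rose from 2.79 and 2.83 to 4.7, 6.55 and 5.47 TPM (0.78 ± 0.19, adjusted p = 0.0086). Smarce1 and the PBAF subunit Pbrm1 were also higher, with log2 fold changes of 0.82 ± 0.18 (adjusted p = 0.0049) and 0.72 ± 0.14 (adjusted p = 0.0026). Smarcd1 was lower (-0.59 ± 0.16, adjusted p = 0.013). The other SWI/SNF genes tested, Smarcb1, Smarcd2, Smarcd3, Arid2, Brd7 and Brd9, did not pass the test, with log2 fold changes between -0.79 and 0.29.

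In NuRD 4 of 10 genes fell and 1 rose. Mta3 (chromosome 17, 83706163 to 83823715), 1 of the MTA scaffold genes, read 143 and 161 TPM in d0con and 44.8, 47.1 and 44.7 TPM in d3con. The d3con values lay within 3 TPM of each other (-1.91 ± 0.33, adjusted p = 0.0016). Mta2 fell less, from 154 and 155 to 86.4, 109 and 118.5 TPM (-0.78 ± 0.14, adjusted p = 0.0022). Mta1 read 11.7 and 11.7 TPM in d0con and 29.6, 28.6 and 16.4 TPM in d3con, higher in each d3con library but not past the test (0.89 ± 0.34, adjusted p = 0.053). With the replicate number as a block Mta1 and Arid2 were called higher. With the clone pairs as the block (replicates 1 and 3 in one, replicate 2 in the other) neither was.

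The deacetylase gene Hdac1 fell 2.03-fold to 278, 301 and 331 TPM (-1.02 ± 0.13, adjusted p = 4.57e-04). Its paralog Hdac2 read 133 and 145 TPM in d0con and 169, 188 and 188 TPM in d3con, a difference that did not pass the test (0.18 ± 0.15, adjusted p = 0.34). Mbd3, the methyl-binding-domain scaffold that defines one form of NuRD, fell from 241 and 259 to 156, 165 and 139 TPM (-0.91 ± 0.13, adjusted p = 6.32e-04). Of the ATPases, Chd4 read 64.3 and 59.2 TPM in d0con and 64.3, 72.9 and 65.2 TPM in d3con, groups that met at 64.3 TPM (-0.07 ± 0.22, adjusted p = 0.8). Chd3 rose from 1.04 and 1.14 to 2.68, 2.01 and 2.19 TPM (0.88 ± 0.33, adjusted p = 0.047), a call near the threshold that was lost with the clone pairs as a block, without either d0con library, without d3con replicate 1 or 3, in the 50-base libraries alone, with replicates 1 and 3 summed, with no filter on low counts and under median-of-ratios scaling. Rbbp4 stood at 361 and 365 TPM in d0con and 112, 282 and 260.2 TPM in d3con. Its lowest values in the series were those of the 2 libraries with 75-base reads, 112 TPM in d3con and 152 TPM in d3ko. The test gave -0.96 ± 0.38 with an adjusted p of 0.057, and in the 50-base libraries alone the gene was called lower (-0.63 ± 0.11), as it was with the replicate number as a block (-1.19 ± 0.33) but not with the clone pairs as the block (-0.93 ± 0.36). By the difference of replicate 1 from replicates 2 and 3, Rbbp4 stood at percentiles 0.74 (d3con) and 2.07 (d3ko) of all genes tested. Other genes also stood near the ends, Kdm6b at 95.2 and 97, Dpf3 at 91.4 and 98.7, Mta1 at 91.85 and 91.1 and Jarid2 at 3.61 and 7.56. The part of read length in these values was not tested. Rbbp7 read 424 and 504 TPM in d0con and 506, 568 and 616 TPM in d3con and did not pass the test.

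The demethylases changed in opposite directions. Kdm6b (Jmjd3; chromosome 11, 69398508 to 69420367) read 1.87 and 0.93 TPM in d0con and 8.48, 5.09 and 5.42 TPM in d3con, a 3.98-fold rise (1.99 ± 0.52, adjusted p = 0.012). Kdm6a (Utx), the X-linked demethylase, read 26.1 and 27.5 TPM in d0con and 16.5, 21.9 and 25 TPM in d3con, all lower (-0.55 ± 0.15, adjusted p = 0.012). The summed level of both genes was 28.2 ± 0.31 TPM (SD, n = 2) in d0con and 27.5 ± 2.76 TPM (n = 3) in d3con.

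**Figure D2:**
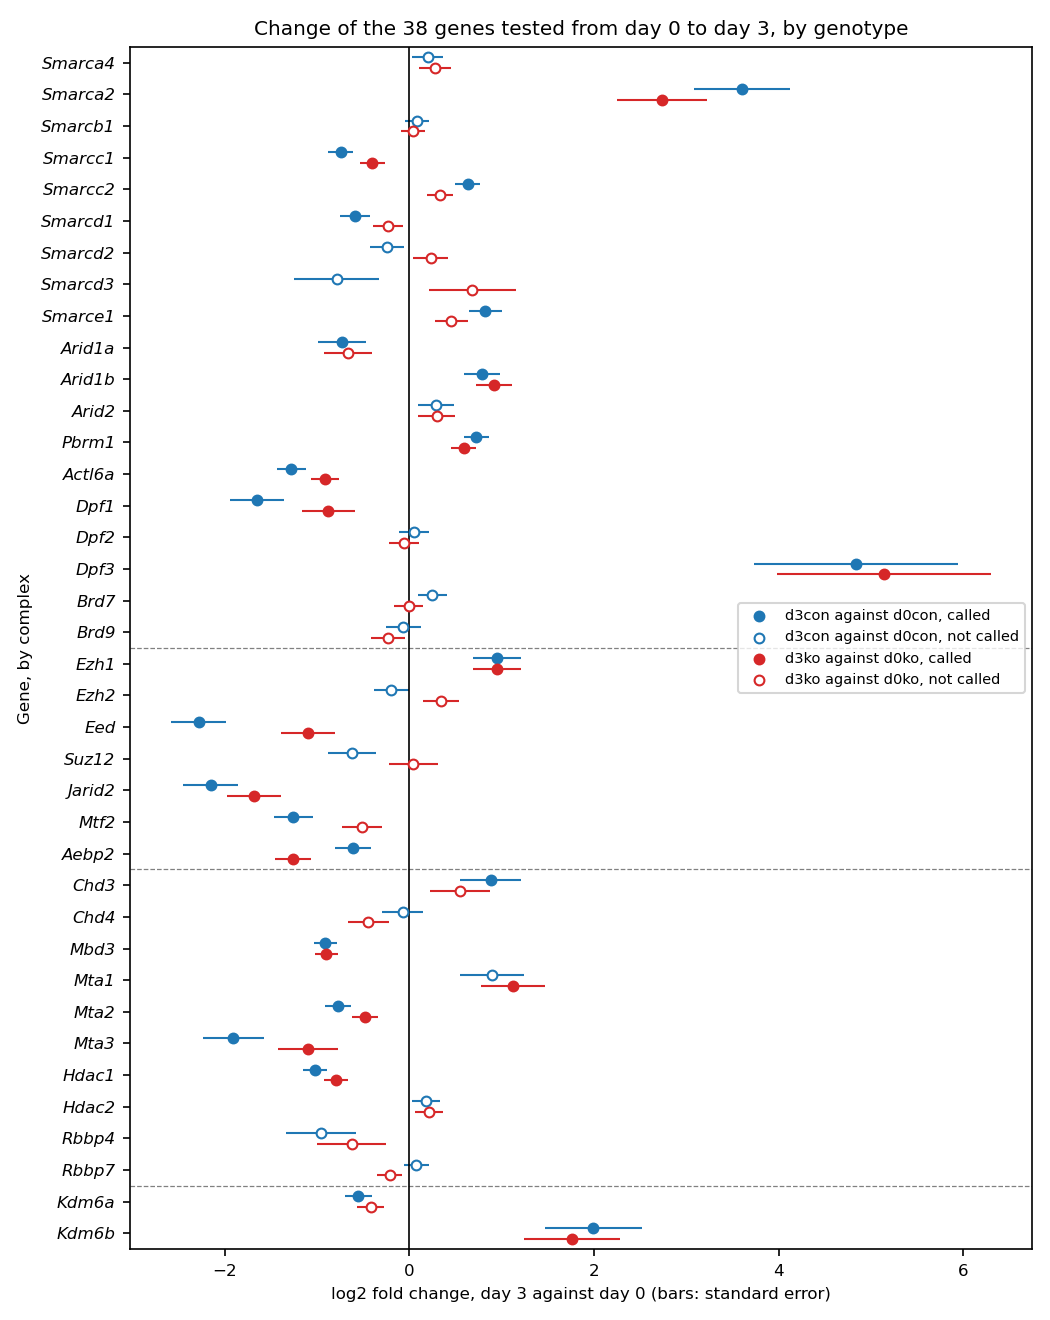
log2 fold change from day 0 to day 3 (x axis) of the 38 genes tested (y axis, grouped by complex with dashed lines), in control cells (d3con against d0con, blue) and Foxa2 knock-out cells (d3ko against d0ko, red). Bars are standard errors and filled points passed the test. Eed, Mta3 and Mtf2 lie further to the left in control cells than in knock-out cells, and no gene passed the test of that difference.

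The second comparison followed the same step in cells without Foxa2. From d0ko to d3ko, 7 of the 38 genes were higher (18.4%) and 10 lower (26.3%), against 15.9% and 14.1% of all genes tested. 8 of the 38 changed by over 2-fold, against 17.3% of all genes, and the median log2 fold change was -0.03 over the 38 genes and 0.07 over all genes. 5 of the 17 calls, Actl6a, Jarid2, Aebp2, Mbd3 and Hdac1, held with each library left out in turn. The other 12 were lost when either d0ko library was left out, which leaves 5 calls (against 6.21% of all genes without replicate 1 and 9.25% without replicate 2), and 7 calls were made when only d0ko and d3ko were compared without the control libraries. A replicate block ended the call of Dpf1, and added Arid1a and Kdm6a as lower. With the clone pairs as the block Dpf1 was not called either, and Arid1a and Kdm6a were not.

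The genes that rose were Smarca2, Dpf3, Arid1b, Pbrm1, Ezh1, Mta1 and Kdm6b. Smarca2 read 0.34 and 0.32 TPM in d0ko and 3.89, 8.38 and 3.46 TPM in d3ko, with replicate 2 at more than the level of either other library (2.74 ± 0.49, adjusted p = 0.0046). Dpf3 spanned 10.7, 7.08 and 1.56 TPM in d3ko, from 0.09 and 0.21 TPM (5.14 ± 1.16, adjusted p = 0.012). Kdm6b read 1.67 and 1.34 TPM in d0ko and 9.16, 4.71 and 3.26 TPM in d3ko (1.76 ± 0.52, adjusted p = 0.031). Ezh1 rose from 18.4 and 17.8 to 31.3, 34.2 and 52.4 TPM (0.95 ± 0.26, adjusted p = 0.025), and Mta1 from 7.55 and 9.71 to 27.4, 21.1 and 14.4 TPM (1.12 ± 0.35, adjusted p = 0.038). The Mta1 call was also lost without replicate 1 or 2 of d3ko. In the 50-base libraries alone the calls of Mta1 and Kdm6b were lost, as were those of Smarcc1, Dpf1, Eed, Mta2 and Mta3, which fell.

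Of the genes that fell, Jarid2 read 305 and 307 TPM in d0ko and 77.5, 138 and 107 TPM in d3ko (-1.68 ± 0.29, adjusted p = 0.0043). Aebp2 went from 30.5 and 45 to 12.6, 13.5 and 12.5 TPM (-1.26 ± 0.19, adjusted p = 0.0028), and its d0ko libraries differed more from each other than its d3ko libraries did. Eed was spread wide in d3ko, with 173, 85.5 and 205 TPM against 282 and 308 TPM in d0ko. All 3 d3ko libraries were lower (-1.10 ± 0.29, adjusted p = 0.022), with replicate 2 far below the others. Mta3 had the same order of libraries, 84, 45 and 123 TPM in d3ko against 153 and 170.5 TPM in d0ko (-1.10 ± 0.33, adjusted p = 0.032). Without replicate 2 of d3ko both were still called lower, Eed at -0.8 ± 0.12 and Mta3 at -0.79 ± 0.17. Actl6a, Hdac1 and Mbd3 were 1.88-fold, 1.73-fold and 1.86-fold lower, and Smarcc1, Dpf1 and Mta2 fell with log2 fold changes of -0.4, -0.88 and -0.48. Mtf2, with 112, 78.1 and 129 TPM in d3ko and 134 and 144 TPM in d0ko, was lower in each library and did not pass the test (-0.51 ± 0.21, adjusted p = 0.095). Suz12 read 46.6 and 49 TPM in d0ko and 61, 33.5 and 70.1 TPM in d3ko, where replicates 1 and 3 lay above both d0ko libraries and replicate 2 below them.

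Several enzymes of the complexes did not pass this test. Smarca4 read 75.5 and 67.9 TPM in d0ko and 91, 119.5 and 82.6 TPM in d3ko (0.28 ± 0.17). Chd4 read 66.3 and 66.7 TPM in d0ko and 58, 69.7 and 36.8 TPM in d3ko (-0.45 ± 0.22), and Chd3 read 1.67 and 1.12 TPM in d0ko and 2.84, 2.1 and 1.93 TPM in d3ko (0.55 ± 0.32). In none of the 3 did the fitted change exceed 1 on the log2 scale. Hdac2 read 131 and 124 TPM in d0ko and 139, 159.9 and 198 TPM in d3ko (0.21 ± 0.15). Ezh2 read 58 and 67.3 TPM in d0ko and 82.6, 73.9 and 109.7 TPM in d3ko (0.34 ± 0.19). Kdm6a read 25.9 and 25.9 TPM in d0ko and 20, 22 and 23.2 TPM in d3ko, lower in each d3ko library (-0.42 ± 0.15).

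The third comparison set the knock-out against the control at day 3, and it shares the d3con libraries with the first comparison and the d3ko libraries with the second. Eed and Mtf2 were higher in d3ko and Smarcc2 was lower. These 2 of 38 genes higher (5.26%) and 1 lower (2.63%) stand beside 5.66% and 4.89% of all genes tested. An unadjusted p under 0.05 was found for 13 of the 38, against 3878 of the 13899 genes tested. 2 of the 38 differed by over 2-fold, against 8.26% of all genes. Eed was 2.3-fold higher (1.2 ± 0.27, adjusted p = 0.026). Its d3ko libraries (173, 85.5 and 205 TPM) all lay above the d3con libraries (61.6, 70.8 and 69.5 TPM), replicate 2 by the least. Mtf2 was also higher (log2 fold change 1.0 ± 0.19, adjusted p = 0.017), at 112, 78.1 and 129 against 41.7, 62.9 and 54.6 TPM, and again replicate 2 lay nearest to the control. Smarcc2 was 1.44-fold lower (-0.53 ± 0.12, adjusted p = 0.029), at 16.9, 18.2 and 15.8 against 21.3, 23.6 and 28.1 TPM, with no overlap. None of the 3 calls held with each library left out in turn. No member was called without d3con replicate 1 (against 1.69% of all genes tested), d3con replicate 3 (0.594%) or d3ko replicate 1 (3.92%). None was called in the 50-base libraries alone (0.00734% of all genes) or with replicates 1 and 3 summed (0.00732%). Fitting d3con and d3ko without the day 0 libraries also gave none (0.496%), and only Mtf2 was called without d3ko replicate 3 (4.28%).

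Leaving out replicate 2 of d3ko raised the count of calls. It is the one d3ko library of clone C17, so that the library and the clone cannot be told apart. Without it the 3 calls stayed and 11 of the 38 genes were called, 7 higher and 4 lower in d3ko, while 27.4% of all genes tested were called in the same fit. The 8 added were Suz12, Mta3, Ezh2, Smarcc1 and Smarcd3, all higher in d3ko, and Smarcb1, Smarce1 and Rbbp7, all lower. Without replicate 2 of both genotypes, an alternative chosen after seeing the data, 10 were called, against 29.7% of all genes tested. Suz12 read 61, 33.5 and 70.1 TPM in d3ko and 29.2, 37.2 and 35.2 TPM in d3con, so the groups overlapped through replicate 2 (0.70 ± 0.24, adjusted p = 0.093). Without that library its log2 fold change was 0.97 ± 0.11. Mta3, at 84, 45 and 123 against 44.8, 47.1 and 44.7 TPM, overlapped in the same way (0.86 ± 0.30, adjusted p = 0.098), and stood at 1.17 ± 0.15 without replicate 2. Ezh2 was higher in all 3 d3ko libraries, 82.6, 73.9 and 109.7 against 53.4, 68.2 and 72.9 TPM, without passing the test (0.46 ± 0.17, adjusted p = 0.12). The pluripotency score ordered the d3ko libraries as Eed, Mtf2, Suz12, Mta3 and Ezh2 did, replicate 3 above 1 above 2. Smarcc1, Smarcd1, Smarcd2 and Hdac1 had this order too. The other genes of the list did not, among them Jarid2 (77.5, 138 and 107 TPM in replicates 1, 2 and 3) and Actl6a (206, 242 and 299 TPM). The share of all genes with this order was not computed. The part of the spread between the d3ko libraries in the calls was not tested.

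**Figure D3:**
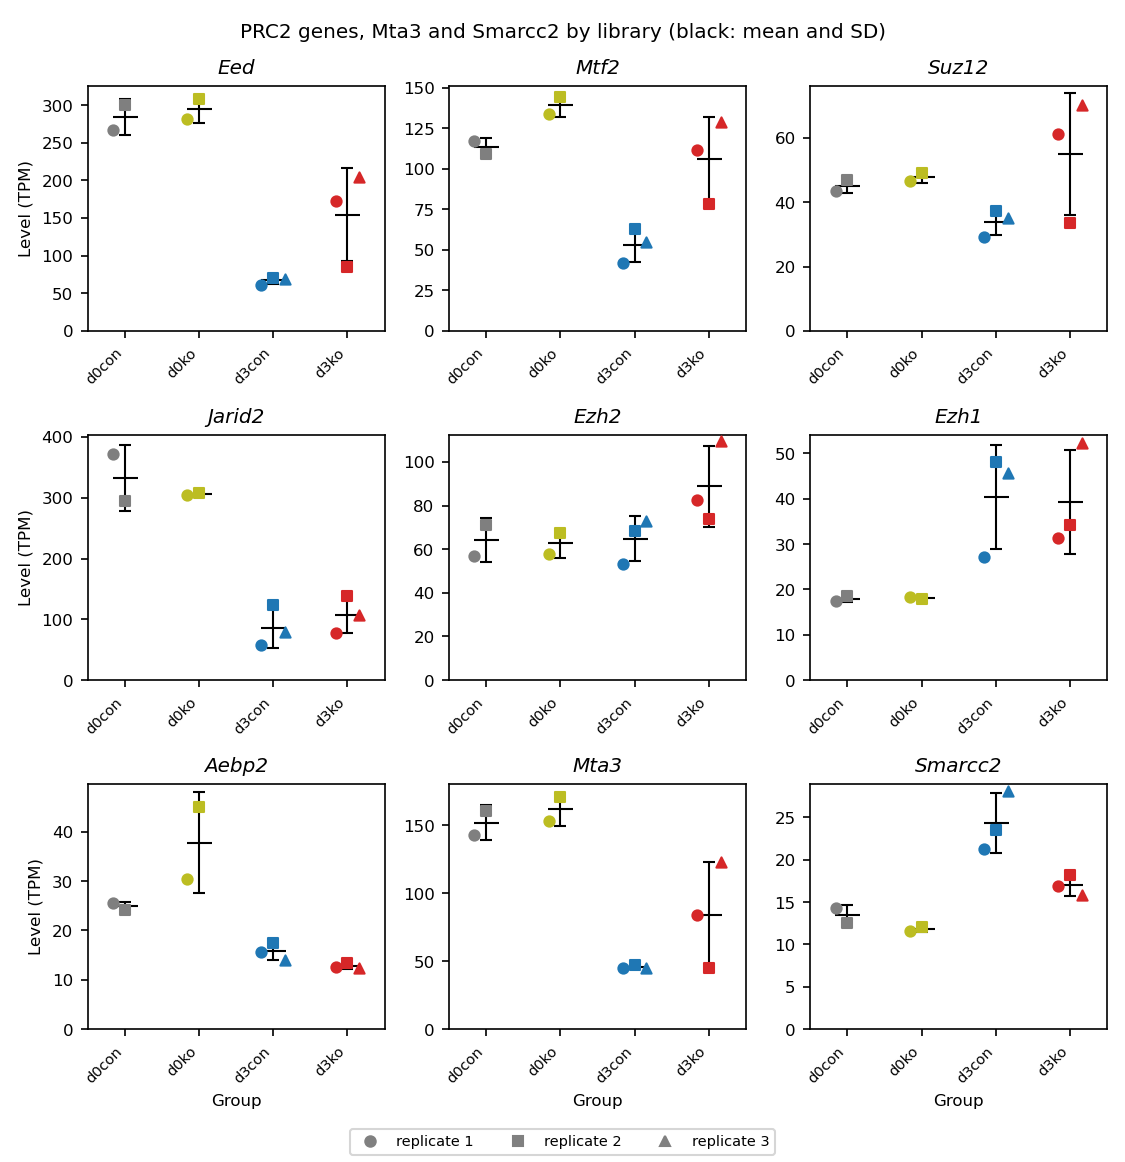
TPM (y axis, from 0) of the 7 PRC2 genes, Mta3 and Smarcc2 in each day 0 and day 3 library, by group (x axis). Marker shapes give the replicate, and black lines the mean and SD. In Eed, Mtf2, Suz12 and Mta3 the square of replicate 2 in d3ko lies nearest to the blue d3con points, while Smarcc2 keeps all d3ko points below d3con.

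Whether the step from day 0 to day 3 itself differed between the genotypes was tested as an interaction. None of the 38 genes passed, and 0 of 13899 genes (0%) did by edgeR, with 3 of the 38 and 1840 of all genes at an unadjusted p under 0.05. DESeq2 called none of the 38 and 589 of all genes. Eed had a log2 interaction of 1.19 ± 0.42 (adjusted p = 0.28), Mtf2 0.74 ± 0.30 (adjusted p = 0.33) and Aebp2 -0.65 ± 0.28 (adjusted p = 0.36). For Jarid2 it was 0.47 ± 0.42 (adjusted p = 0.67). Without replicate 2 of d3ko, the interaction was called for 4 of the 38 genes, against 9.17% of all genes tested, namely Eed (1.48 ± 0.17), Mta3 (1.12 ± 0.23), Mtf2 (0.93 ± 0.22) and Suz12 (0.92 ± 0.17), each with a day 3 level that was higher, relative to day 0, in the knock-out than in the control. At day 0 no gene of 13899 (0%) was called between d0ko and d0con by edgeR, with 195 of them at an unadjusted p under 0.05 and 1 called by DESeq2. Of the 38 genes only Aebp2 had an unadjusted p under 0.05, at 30.5 and 45 TPM in d0ko and 25.6 and 24.2 TPM in d0con (0.57 ± 0.22).

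Brd7, the bromodomain subunit of PBAF, lies on chromosome 8 (88329894 to 88362252). In d3ko replicate 2, the 508 genes of chromosome 8 with a mean count of at least 200 had a median log2 difference of -0.42 from the mean of the other two d3ko libraries, against -0.01 to 0.08 for the other autosomes. Brd7 itself stood at -0.45, with 76, 55.9 and 73.8 TPM in d3ko and 77.1, 88.9 and 86.8 TPM in d3con. Its difference from d3con did not pass the test (-0.30 ± 0.14, adjusted p = 0.2).

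The last comparison set Venus-positive against Venus-negative ESCs of the doxycycline-treated line. No untreated cells are among these groups. An effect of induced Foxa2 and other differences between the sorted cells cannot be told apart. Smarca2 was higher in d2-FVFp, and Actl6a and Rbbp4 were lower. This made 1 of 37 genes higher (2.7%) and 2 lower (5.41%), against 9.96% and 6.57% of the 12943 genes tested, with Actl6b and Dpf3 below the filter. 11 of the 37 had an unadjusted p under 0.05, against 4324 of the 12943 genes tested. 1 of the 37, Smarca2, differed by over 2-fold, against 8.43% of all genes. Smarca2 read 1.55 and 2.02 TPM in d2-FVFn and 2.56 and 4.29 TPM in d2-FVFp, from 44 and 67 to 110 and 172 counts, which the fit gave as 2.88-fold (1.53 ± 0.30, adjusted p = 0.017). By limma on log2(TPM + 1) the difference was 0.65 and was not called. Actl6a read 399 and 371 TPM in d2-FVFn and 281 and 283 TPM in d2-FVFp (-0.50 ± 0.11, adjusted p = 0.026). Rbbp4 read 510.3 and 467 TPM in d2-FVFn and 379.8 and 365 TPM in d2-FVFp (-0.44 ± 0.10, adjusted p = 0.03). All 3 calls were lost when either d2-FVFn library was left out. Without d2-FVFp replicate 1, 7 of these genes were called, against 14.3% of all genes tested.

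Several other genes were near the threshold in the doxycycline cells. With the replicate number as a block, Chd3, Mta1 and Kdm6b were also called higher, and Mtf2, Ezh2, Smarca4, Jarid2 and Arid1a lower. That fit called 11 of these genes, against 36.7% of all genes tested. The values below are from the fit without a block. Chd3 read 1.1 and 1.16 TPM in d2-FVFn and 2.34 and 2.05 TPM in d2-FVFp (0.91 ± 0.26, adjusted p = 0.054). Mtf2 read 145 and 116 TPM in d2-FVFn and 102 and 88.8 TPM in d2-FVFp (-0.50 ± 0.15, adjusted p = 0.06), lower in both Venus-positive libraries. Ezh2 was lower in both, 83.7 and 58.9 against 104 and 93.3 TPM (-0.52 ± 0.18, adjusted p = 0.096), and so was Smarca4, 99 and 94.1 against 127 and 115 TPM (-0.37 ± 0.12, adjusted p = 0.067). Kdm6b read 1.49 and 0.97 TPM in d2-FVFn and 2.02 and 2.64 TPM in d2-FVFp (0.88 ± 0.32, adjusted p = 0.1). Its partner Kdm6a read 37.3 and 35.1 TPM in d2-FVFn and 33.3 and 33.9 TPM in d2-FVFp (-0.15 ± 0.13, adjusted p = 0.44). Of the other enzymes, Chd4 read 68.5 and 69.5 TPM in d2-FVFn and 70 and 61.9 TPM in d2-FVFp, which overlapped. Hdac2 overlapped too, at 145 and 139 TPM in d2-FVFn and 173 and 119.4 TPM in d2-FVFp. So did Ezh1, at 25.9 and 19.3 TPM in d2-FVFn and 29 and 25.4 TPM in d2-FVFp. Eed overlapped between the groups, with 223 and 188 TPM in d2-FVFn and 199 and 175 TPM in d2-FVFp. The pluripotency score was 7.97 and 7.64 in d2-FVFn and 7.82 and 7.43 in d2-FVFp, and the fibroblast markers summed to 2.73 to 4.07 TPM over these 4 libraries.

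**Figure D4:**
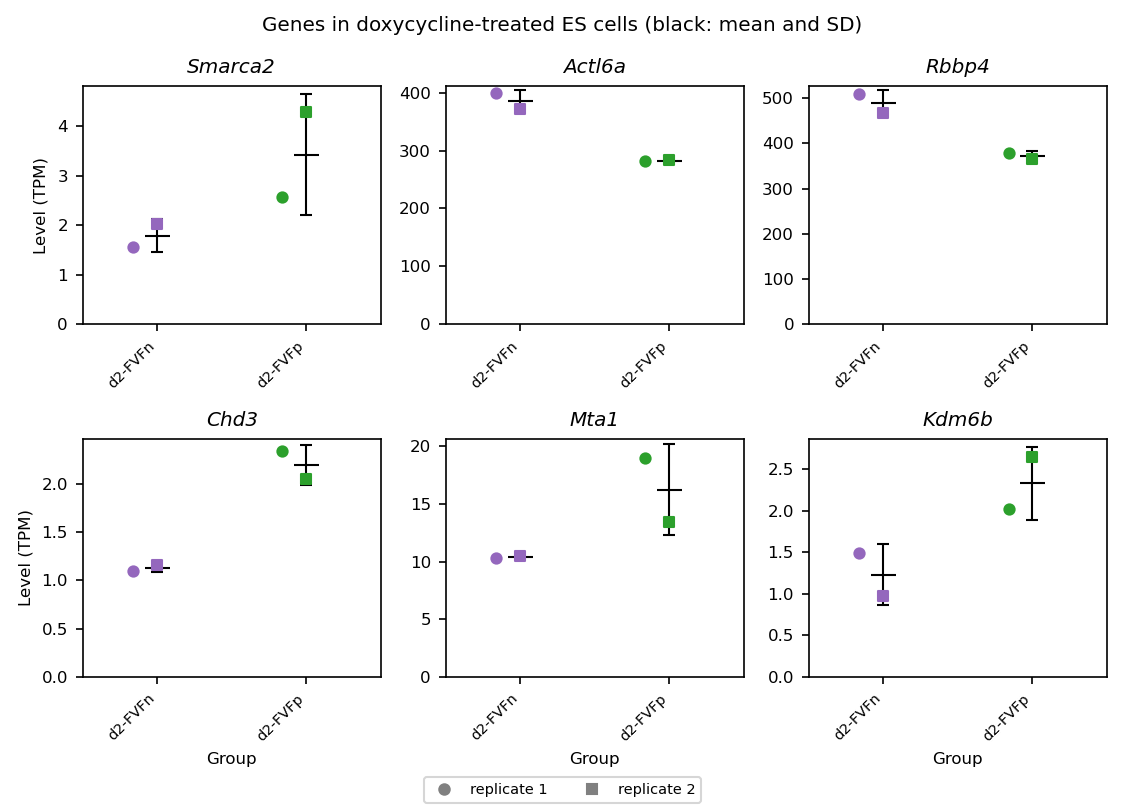
TPM (y axis, from 0) in the Venus-negative (d2-FVFn) and Venus-positive (d2-FVFp) libraries (x axis), with the mean and SD in black and the replicate by marker shape. Top row, the 3 genes that passed the test, and bottom row, Chd3, Mta1 and Kdm6b, higher in the mean of d2-FVFp, which did not pass it. Mtf2, Smarca4 and Ezh2, lower in both Venus-positive libraries, did not pass it either and are not shown.

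Because several subunits are exchanged for a paralog, the share of each in its pair was taken from TPM, which is scaled by length. Smarca2 made up 0.48% ± 0.3 (SD, n = 2) of the ATPase pair Smarca2 and Smarca4 in d0con, 7.06% ± 0.78 (n = 3) in d3con and 4.89% ± 1.44 (n = 3) in d3ko. In the doxycycline cells its share was 1.47% ± 0.38 in d2-FVFn and 3.44% ± 1.3 in d2-FVFp (n = 2 each). Smarcc2 held 10.4% ± 0.74 of its pair with Smarcc1 in d0con, 23.2% ± 1.3 in d3con and 15.5% ± 2.78 in d3ko, where the lowest d3con share, 22.5%, lay above the highest d3ko share, 18.3%. Arid1b went from 7.36% ± 0.99 of its pair with Arid1a in d0con to 18.5% ± 3.16 in d3con, and was at 17.6% ± 3.25 in d3ko. Hdac2 went from 20.6% ± 0.3 of the Hdac pair in d0con to 37.5% ± 1.12 in d3con and 32.3% ± 1.93 in d3ko. Ezh1 went from 22% ± 1.91 of the Ezh pair to 37.9% ± 3.89 in d3con and 30.5% ± 2.62 in d3ko, and from 18.6% ± 1.97 in d2-FVFn to 27.9% ± 3.12 in d2-FVFp. In each of these 5 pairs the day 3 libraries lay above the day 0 libraries of their genotype. Other pairs went the other way. In Mta3 with Mta2 the d3con libraries lay below d0con, at 30.6% ± 3.4 against 49.5% ± 2.09. Dpf1 fell from 8.51% ± 0.2 of its pair with Dpf2 in d0con to 2.81% ± 0.68 in d3con. In the knock-out it fell from 8.02% ± 1.46 in d0ko to 4.74% ± 1.08 in d3ko. The shares are descriptions and were not tested.

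**Figure D5:**
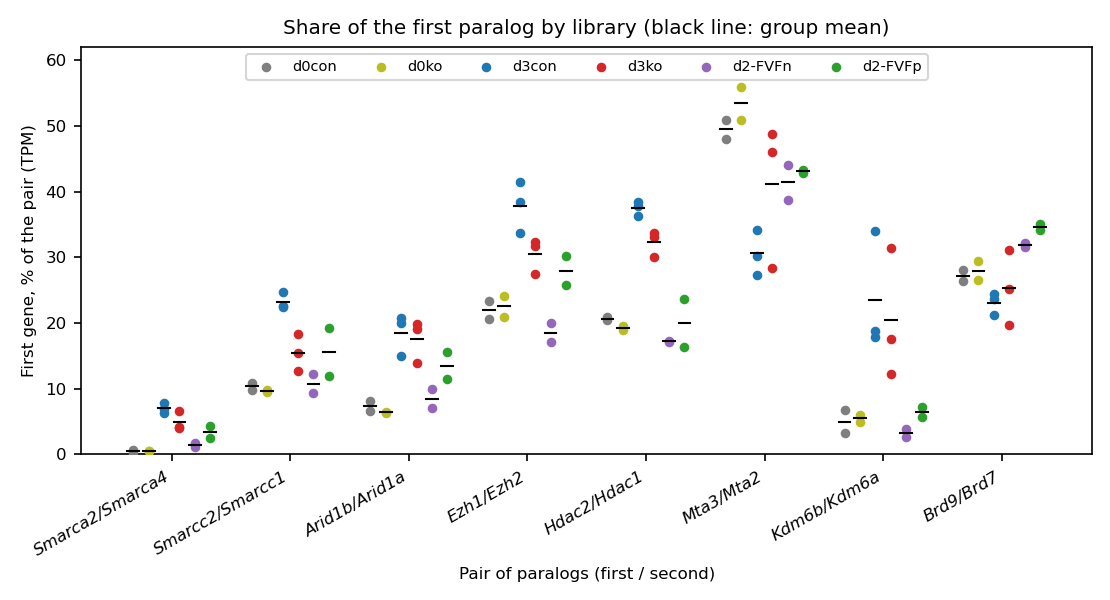
Share of the first gene of 8 pairs of paralogs (x axis) in the summed TPM of the pair (y axis, %), 1 point for each library, coloured by group, with the group mean as a black line. The blue d3con points stand above the grey d0con points in Smarca2, Smarcc2, Arid1b, Ezh1, Hdac2 and Kdm6b and below them in Mta3 and Brd9.

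Other genes of the same complexes and of Polycomb repressive complex 1 (PRC1), which ubiquitinates histone H2A, were taken from a list of 41, all tested at day 0 and day 3. From d0con to d3con 11 rose and 12 fell, against 27% and 25.2% of all genes tested, and from d0ko to d3ko 7 rose and 5 fell, against 15.9% and 14.1%. In control cells the rises were led by Yaf2, a PRC1 partner, from 2.57 ± 0.43 (SD, n = 2) to 25.3 ± 1.47 TPM (n = 3), the Polycomb gene Scml2 (log2 fold change 2.69 ± 0.87) and the PBAF gene Phf10 (1.7 ± 0.45). The falls were led by Epop (E130012A19Rik in the tables), a PRC2 accessory gene, from 300.8 ± 47.2 to 49 ± 12 TPM, the PRC1 chromobox gene Cbx7 (-2.37 ± 0.37) and the PRC2 accessory gene Phf19 (-2.3 ± 0.3). In the knock-out the calls were led by Yaf2 (2.3 ± 0.32), Phf10 (1.92 ± 0.46) and Phc2 (1.46 ± 0.32) upward and Phf19 (-2.56 ± 0.3), Epop (-1.84 ± 0.26) and L3mbtl2 (-1.25 ± 0.18) downward. Between d3ko and d3con 1 of the 41 differed, against 10.5% of all genes. It was Cbx7, at 54.8 ± 27.5 TPM in d3ko and 22.6 ± 1.02 TPM in d3con (n = 3 each; log2 fold change 1.28 ± 0.34, adjusted p = 0.044), a call that was lost without any 1 of the d3con libraries and without d3ko replicate 1 or 3. In d2-FVFp against d2-FVFn, 9.96% of all genes were higher and 6.57% lower. Of the 41, 3 were higher, Mbd2 (1.36 ± 0.28), Phc2 (1.2 ± 0.16) and Bmi1 (1.02 ± 0.25). Another 4 were lower, led by Phf19 (-1.14 ± 0.23), Phc1 (-0.81 ± 0.17) and L3mbtl2 (-0.51 ± 0.12). Mbd2 is the alternative to Mbd3 in NuRD, and Bmi1 a PRC1 subunit.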

How the data were processed

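Total RNA of sorted cells was made into SMART-Seq v4 libraries, which do not keep the strand. The authors aligned the reads to mm10 with STAR and deposited, for each library, RSEM expected counts and TPM values per RefSeq gene symbol (versions not given in the sources used here). The deposited TPM values are scaled by effective gene length and library size and were used for levels, and the deposited expected counts, rounded, for tests. The 2 scales differ. From d0con to d3con the median log2 change over all genes was 0.21 on log2(TPM + 1) and 0.07 in the edgeR fit. A rise in TPM can thus exceed the fitted one. Brd9 was higher by TPM in every d3con library, with a fitted log2 fold change of -0.065.

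edgeR 4.0.16 (R 4.3.3, quasi-likelihood F test, TMM scaling, at least 1 CPM in 2 libraries, Benjamini-Hochberg over all genes tested) was fitted to the 10 day 0 and day 3 libraries together. The 4 doxycycline libraries were fitted separately. On simulated counts the fit of the 10 libraries missed most 2-fold changes, and all of them in the interaction. A gene not called there may still have changed. A gene was called at an adjusted p under 0.05, and every adjusted p given is from edgeR unless another tool is named. The ± of a log2 fold change is its standard error, from the F statistic. No source states that all replicates were separate cultures, so p-values measure the spread between these libraries only. The 39 genes, the related gene list and the tests were chosen with earlier results of these data known. Genes named with values in each library were the ATPases, catalytic subunits and demethylases, the genes called with a change over 2-fold, their paralogs and those the calls turn on.

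From day 0 to day 3 within a genotype, libraries of 1 replicate number share a clone, per the study's methods and sample records, so these are paired by clone. A replicate block also joins the clones of both genotypes and separates replicates 1 and 3 of 1 clone, and a clone block puts replicates 1 and 3 together. The correlation of their deviations from the group means over genes was -0.03 to 0.06. Alternatives were DESeq2 1.42.0, limma 3.58.1 on log2(TPM + 1), other scaling and count filters, a replicate or clone block, each library left out, the 50-base libraries alone, replicates 1 and 3 of day 3 summed, and stricter thresholds. Promoter sequences are from RefSeq (GRCm38.p6), searched over 250 bases before the annotated start. RSEM divides reads shared by near-identical genes by estimate, which bears on Rbbp4 and Rbbp7.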

Additional observations from a re-analysis of the deposited data

Results flagged for a closer look

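The libraries of Smarcd3, a SWI/SNF subunit, lay on opposite sides of day 0 in the genotypes, though neither change passed edgeR's test (log2 -0.79 ± 0.46, adjusted p = 0.18 in control cells and 0.68 ± 0.47, adjusted p = 0.29 in the knock-out). Its mean level was 2.285 TPM in d0con and 1.517 TPM in d3con, with every d3con library below both d0con libraries. In the knock-out it was 2.185 TPM in d0ko and 3.92 TPM in d3ko, with every d3ko library above both d0ko libraries. That separation was narrow, from 2.63 TPM (57 counts) in d0ko replicate 2 to 2.66 TPM (41 counts) in d3ko replicate 1. Replicate 3 of d3ko was the highest, at 5.9 TPM (150 counts). The share of all genes with libraries separated in this way was not computed. The difference between the genotypes in the day 0 to day 3 change came to 1.47 ± 0.66 (log2, SE) and did not pass edgeR's test (adjusted p = 0.384).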

How the results depend on the processing

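No called value of a single gene changed sign under the alternatives run. Of the recomputed single-gene values 4890 kept their side of the threshold, 228 lost a call and 115 gained one. From d0con to d3con the count of 23 calls was 14 to 22 with a library left out and 10 over 2-fold. From d0ko to d3ko the count of 17 was 5 to 19 with a library left out, 11 in the 50-base libraries, 7 with the compared groups fitted alone, 8 over 2-fold and 7 at an adjusted p under 0.01. Between d3ko and d3con the count of 3 was 0 to 11 with a library left out, 6 by DESeq2, 10 without both day 3 replicate 2 libraries, an alternative chosen after seeing the data, and 0 in the 50-base libraries, with replicates 1 and 3 summed, with the compared groups alone and at an adjusted p under 0.01. With a day 3 library left out the interaction gave 0 to 4 calls, the 4 without d3ko replicate 2 (against 9.17% of all genes tested). Without both day 3 replicate 2 libraries it gave 4, against 13.8% of all genes tested. Between d2-FVFp and d2-FVFn the count of 3 was 0 to 7 with a library left out, 9 with no filter on low counts, 1 over 2-fold and 0 at an adjusted p under 0.01. Day 0 gave 0 calls throughout. Where a left-out library leaves 1 sample in a group, that sample is assumed to vary like the other groups. Of all genes tested, 23.1% were called from d0ko to d3ko in the 50-base libraries and 13.4% with the compared groups alone. For that step 17.3% passed at over 2-fold and 11.5% at an adjusted p under 0.01. Between d3ko and d3con DESeq2 called 18.4%, the compared groups alone gave 0.496% and an adjusted p under 0.01 gave 0.626%. Between d2-FVFp and d2-FVFn 19.3% were called with no filter on low counts and 4.03% at an adjusted p under 0.01.

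Under the replicate block the calls numbered 25 from d0con to d3con (52.2% of all genes tested) and 18 from d0ko to d3ko (29.4%). They numbered 1 between d3ko and d3con (7.14%), 11 between d2-FVFp and d2-FVFn (36.7%), and 0 for the interaction and for day 0 (0%). With the clone pairs as the block they were 22, 16 and 3 in the first 3 of these comparisons, against 52.2%, 31.1% and 10.4% of all genes. Chd3 (d0con to d3con) and Dpf1 (d0ko to d3ko) were the calls lost. Between genotypes the libraries share only a number. The doxycycline libraries were all of clone T119, and a pairing of them by number was fitted only as the replicate block. The correlation of same-numbered deviations was 0.53, 0.29 and -0.01 between d3ko and d3con, 0.1 at day 0 and 0.24 in the doxycycline groups, where each group has 2 libraries. The cause of these shifts was not tested. Genes of few counts, Actl6b, Dpf3 and Smarca2 at day 0, are limited by depth.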
